A study of Mus musculus with 2 samples.

Results

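Folr2 Fcna macrophages were taken here as tumour cells rich in complement C1q transcripts that also carried several transcripts of Folr2 and Fcna. A barcode was kept with at least 200 detected genes and at most 15% mitochondrial transcripts, counted as unique molecular identifiers (UMIs, each standing for 1 captured transcript). It was a C1q cell where C1qa, C1qb and C1qc together made up at least 0.3% of its UMIs, and a member where Folr2 and Fcna together reached 5 UMIs. Cells were left out with 2 or more UMIs of Cbr2 and Cd163, 5 or more of Cxcl9, Cxcl10 and Ifit2, 3 or more of Mki67 and Top2a, any of Cd3d, Cd3e or Cd3g, 5 or more of Krt8 and Krt18, 3 or more of Ctsk, or 2 or more of Gpnmb. The rule found 284 members among 19476 kept barcodes and 10140 C1q cells, 155 in the library titled CEP and 129 in the library titled Vehide, called CEP and Vehicle below. Every level of Folr2, Fcna, the C1q genes and the genes left out describes that choice, and so do all differences between members and other cells of the same libraries.

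The study asked about cepharanthine, a plant alkaloid, in mouse tumours and their response to immunotherapy. CEP is read here as cepharanthine and Vehide as the vehicle control. Tumours were dissociated and cells were enriched for CD45, the surface protein of blood-derived cells, on magnetic beads, and loaded for droplet sequencing of transcript 3' ends. The design text gives 5 biological replicates per group, but each group is 1 library whose cells cannot be assigned to animals from the labels, so each group counts as 1 sample. Mouse strain, sex and age, tumour line and site, and the dose, route and duration of treatment are not given in the sources used here. With 1 sample per group no difference between CEP and Vehicle could be tested. Intervals are 95% intervals for counting error and hold no spread between animals. Those of levels and ratios treat each UMI as independent, so they hold no spread between cells either.

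Folr2 encodes folate receptor beta, a membrane protein that takes up folate and marks resident and perivascular macrophages of many tissues. Fcna encodes ficolin A, a soluble lectin that recognises sugars on microbes and starts the lectin pathway of complement. Of the other genes used as markers of this cell state, Vcam1 encodes an adhesion ligand for integrins on leukocytes, Fcrls a scavenger-like receptor also found in microglia, and Gas6 a bridging ligand that links dying cells to the receptors Axl and Mertk. In tumours, macrophages with Folr2 are known as a population close to vessels and lymphocytes, distinct from those recently derived from monocytes.

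On the mm10 build all 5 marker genes lie on the minus strand: Folr2 at chr7:101839988-101857194, Fcna at chr2:25624666-25628030, Fcrls at chr3:87250758-87263738, Vcam1 at chr3:116109949-116129688 and Gas6 at chr8:13465374-13494490. Promoters of Folr2 and Fcna, which define the members, and of Fcrls, the marker whose transcripts ran closest with theirs, are shown because members also held more transcripts of Maf, a transcription factor of resident macrophages. They are RefSeq windows of the GRCm38.p6 assembly, from 250 bases before to 50 after a gene start, printed in the direction of the gene, and capitals mark TGCTGA, the half-site that MAF factors recognise. The Folr2 windows lie at chr7:101857141-101857440 and chr7:101845282-101845581, that of Fcna at chr2:25627925-25628224 and that of Fcrls at chr3:87263475-87263774, all on the minus strand.
Folr2, the start farther upstream: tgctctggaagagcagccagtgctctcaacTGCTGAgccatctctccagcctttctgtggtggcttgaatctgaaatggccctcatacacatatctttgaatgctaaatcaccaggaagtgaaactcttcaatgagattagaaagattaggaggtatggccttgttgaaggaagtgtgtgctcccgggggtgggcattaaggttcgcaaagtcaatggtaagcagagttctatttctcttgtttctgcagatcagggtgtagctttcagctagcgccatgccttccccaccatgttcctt
Folr2, the start farther downstream: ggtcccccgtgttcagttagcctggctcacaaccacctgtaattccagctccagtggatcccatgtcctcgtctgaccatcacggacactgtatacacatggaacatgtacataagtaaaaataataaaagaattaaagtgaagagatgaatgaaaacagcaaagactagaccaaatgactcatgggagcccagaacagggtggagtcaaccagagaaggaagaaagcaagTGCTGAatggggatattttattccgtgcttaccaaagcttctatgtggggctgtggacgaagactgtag
Fcna: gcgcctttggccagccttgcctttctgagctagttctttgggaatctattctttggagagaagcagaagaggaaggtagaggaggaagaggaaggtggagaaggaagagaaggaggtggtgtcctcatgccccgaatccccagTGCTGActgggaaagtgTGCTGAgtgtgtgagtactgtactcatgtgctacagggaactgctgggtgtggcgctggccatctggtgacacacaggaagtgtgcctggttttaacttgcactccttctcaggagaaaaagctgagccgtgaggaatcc
Fcrls: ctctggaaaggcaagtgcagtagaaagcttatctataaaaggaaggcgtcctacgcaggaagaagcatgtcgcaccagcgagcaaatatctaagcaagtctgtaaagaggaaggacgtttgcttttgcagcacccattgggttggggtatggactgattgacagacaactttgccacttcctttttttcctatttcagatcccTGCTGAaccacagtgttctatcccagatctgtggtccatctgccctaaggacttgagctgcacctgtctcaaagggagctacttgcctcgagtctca
The half-site began 220 and 19 bases before the start in the Folr2 windows, at positions -220 and -19, at -107 and -90 in Fcna and at -47 in Fcrls. On either strand it was found in 6401 of 32851 promoters of the same length (19.5%), also in that of Ccl8 and in none of those of Gas6, Npl and F13a1. GAGGAA, a core of PU.1 sites, was in the Fcna, Fcrls, Ccl8 and both F13a1 windows and in 28.3% of all promoters. TGANTCA, the AP-1 site, was in the downstream Folr2 window and in 7.81% of all. TTGCNNAA (C/EBP) and the longer MAF palindrome, LXR direct repeat and interferon response element were in none of these windows, and CACGTG (E-box) only in that of Npl. Such a match describes the letters and does not show that a factor binds.

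The 2 libraries held 88721774 and 81208647 UMIs over 9621 and 9989 barcodes, and 136 barcode sequences occurred in both. No member was found under a shared barcode in both libraries, and 2 CEP and 1 Vehicle members carried a shared sequence. Members had a median of 11132 UMIs in CEP and 12766 in Vehicle, ranging from 1881 to 25245 and from 521 to 25294, over 3083 and 3254 genes. C1q cells under the same exclusions with fewer than 5 UMIs of Folr2 and Fcna, called other C1q macrophages below, were shallower, at 8212 and 9318.5 UMIs. Because the rule counts raw UMIs, deeper cells reached it more easily.

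The marker genes were all detected in members, and their levels are given first. The levels below are counts per 1000000 UMIs (CPM) summed over a population in 1 library. Folr2 stood at 355 CPM in CEP (328 to 383) and 341 in Vehicle (314 to 370.3), against 26.1 and 21.4 in other C1q macrophages. Fcna stood at 336 CPM in CEP (310.3 to 364) and 269.6 in Vehicle (245 to 295), against 19.7 and 16.3. These 2 genes made the choice, so their excess is a description. Among the markers that the rule did not name, Fcrls stood at 226 CPM in CEP (205 to 249) and 134 in Vehicle (117 to 153), against 57.0 and 34.6 in other C1q macrophages. Vcam1 stood at 133 CPM in CEP (117 to 151) and 109 in Vehicle (94.3 to 126), against 54.6 and 36.8. Gas6 stood at 125 CPM in CEP (109 to 142) and 127 in Vehicle (111 to 145), against 52.1 and 40.4. Thus all 3 markers outside the rule were higher in members than in other C1q macrophages in both libraries.

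Most members carried both genes of the rule, and most carried at least 1 of the other markers. Folr2 and Fcna were detected together in 137 CEP members (88.4%) and 110 Vehicle members (85.3%). Folr2 alone was seen in 12 and 13, and Fcna alone in 6 and 6. Fcrls had a UMI in 67.7% of CEP and 58.1% of Vehicle members, Vcam1 in 44.5% and 51.2%, and Gas6 in 67.1% and 71.3%. In other C1q macrophages the shares were 22.4% and 15.3% for Fcrls, 16.7% and 14.0% for Vcam1, and 26.4% and 24.4% for Gas6. Cells with at least 5000 UMIs were also thinned to 5000, which kept 148 and 123 members and 2248 and 2529 other C1q macrophages and left out 7 and 6 members and 929 and 835 other C1q macrophages. Fcrls was then found in 53.4% and 43.9% of members against 19.3% and 11.1% of other C1q macrophages. The same thinning gave 27.7% and 34.1% against 15.1% and 11.0% for Vcam1, and 45.9% and 40.7% against 19.1% and 15.5% for Gas6. The differences in these shares thus remained at equal depth. Neutrophils, which should lack these transcripts, were taken as barcodes with S100a8 and S100a9 at 1% of UMIs or more and C1q below the 0.3% limit, 1924 in CEP and 2383 in Vehicle. At median depths of 1671 and 1793 UMIs, well under those of members, 0.988% and 0.629% of them had a Folr2 UMI, 0.520% and 0.336% Fcna, 0.312% and 0.504% Fcrls, 0.676% and 0.210% Vcam1, and 0.728% and 1.01% Gas6. In the 145 and 190 with at least 5000 UMIs, thinned to 5000, Folr2 was found in 2.07% and 2.63% and Fcrls in 1.38% and 0.526%. Of all these neutrophils 1 in each library reached 5 UMIs of Folr2 and Fcna.

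General macrophage transcripts were abundant and those of lymphocytes were at or near 0. Csf1r, the receptor for macrophage colony-stimulating factor, stood at 719 CPM in CEP and 725 in Vehicle in members, and Adgre1, which encodes F4/80, at 134 CPM in CEP and 118 in Vehicle. Over the 10 T cell markers less the Cd3 genes used by the rule, the summed level was 20.5 CPM in CEP and 12.9 in Vehicle, most of it Cd4, and Trac and Trbc2 had no UMI in either library. The 7 natural killer cell markers summed to 21.0 CPM in CEP and 0.589 in Vehicle, where 6 of the 7 were at 0. Mast cell and erythroid markers had no UMI in any member. Neutrophil transcripts were present and unequal: all 8 markers were detected, and they summed to 1393 CPM in CEP and 489.7 in Vehicle, against 1547 and 1343 in other C1q macrophages. Members with at least 10 UMIs of S100a8 and S100a9 numbered 14 in CEP (9.03%) and 8 in Vehicle (6.2%). Of the 8 monocyte markers, Ccr2, the receptor that draws monocytes into tissue, stood at 61.5 CPM in CEP and 50.6 in Vehicle, below the 101 and 125 of other C1q macrophages, and Chil3 had 0 and 1 UMI.

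The limit of 5 UMIs fell within a continuous distribution. In CEP, 2483 C1q cells under the same exclusions had no UMI of Folr2 and Fcna, 389 had 1, 154 had 2, 92 had 3, 59 had 4, 44 had 5 and 32 had 6. In Vehicle the counts were 2679, 379, 163, 94, 49, 35 and 24. The median member had 7 UMIs in both libraries and the highest 30 and 36, while 76 CEP members (49.0%) and 59 Vehicle members (45.7%) had exactly 5 or 6. The exclusions also shaped the population: of the 311 CEP and 361 Vehicle C1q cells that reached 5 UMIs, 84 (27.0%) and 134 (37.1%) were left out for Cbr2 and Cd163, 56 (18.0%) and 85 (23.5%) for Mki67 and Top2a, and 25 (8.04%) and 54 (15%) for Cxcl9, Cxcl10 and Ifit2. A cell could be left out on several counts, and the members were 49.8% of these cells in CEP and 35.7% in Vehicle.

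Fcrls, Mrc1 and Arg1 were higher, and the MHC class II gene H2-Ab1 lower, in cells with Folr2 and Fcna than in cells with none. Over cells with 0, 1 or 2, 3 or 4, 5 to 9 and 10 to 19 UMIs of these genes, Fcrls stood at 37.5, 110.3, 129, 234 and 215 CPM in CEP and at 20.7, 74.5, 108, 136 and 129 in Vehicle. The Fcrls level thus increased up to the limit in both libraries and differed little beyond it. Mrc1, the mannose receptor CD206, stood at 219.6, 314, 362, 478 and 521 in CEP and at 192, 285, 317, 417 and 398 in Vehicle. Arg1, the arginase of alternatively activated and tumour macrophages, stood at 698, 1106, 1588, 1742 and 1873 in CEP and at 683, 1220, 1723, 1576 and 1547 in Vehicle. Both were therefore already higher in cells just outside the limit than in cells with none. H2-Ab1, an MHC class II chain that presents peptides to CD4 T cells, was lower in every bin than in cells with none, at 4749, 3722, 3532, 2697 and 3499 in CEP and 6124, 4854, 3898, 3491 and 4066 in Vehicle. Vcam1 stood at 145 and 91.1 CPM just outside the limit and at 119.7 and 97.6 just inside it, and Gas6 at 118 and 86.3 against 123 and 128. Vcam1 and Gas6 thus differed less across the limit than between its lower side and cells with none, whereas Fcrls in CEP stood at 129 just outside and 234 just inside. Only 7 CEP and 3 Vehicle cells had 20 or more UMIs.

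**Figure D1:**
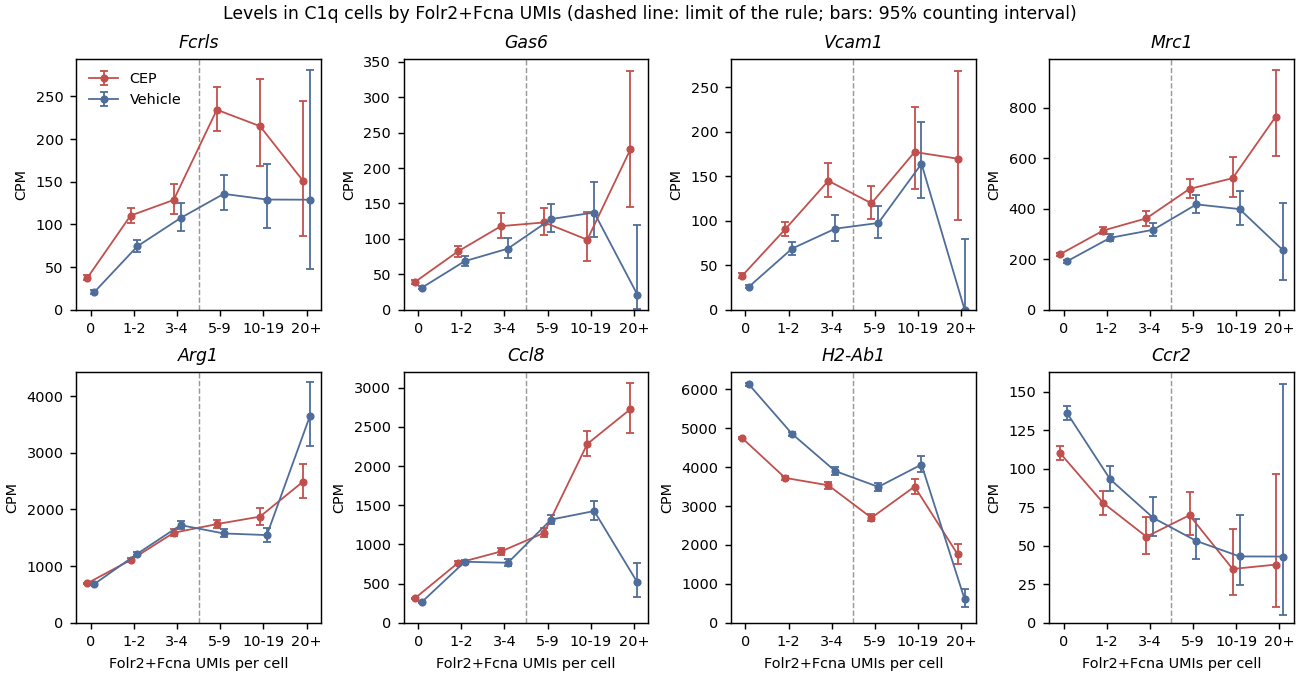
Level in CPM (vertical axis) of 8 genes in C1q cells grouped by their UMIs of Folr2 and Fcna (horizontal axis), in CEP (red) and Vehicle (blue), with 95% counting intervals as bars and the limit of 5 UMIs as a dashed line. Fcrls, Mrc1 and Arg1 were higher, and H2-Ab1 and Ccr2 lower, at 5 to 9 UMIs than at 0 in both libraries, with Arg1 in Vehicle and Ccr2 in CEP not in order between 3 and 9 UMIs, while the last bin holds 7 and 3 cells and has wide bars.

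The genes whose levels ran most closely with Folr2 and Fcna were ranked over cells that met the C1q limit and the exclusions after thinning to 5000 UMIs, 2865 in CEP and 3272 in Vehicle, by the mean Pearson correlation of log2 values among 5072 genes. F13a1, which encodes coagulation factor XIII A, led with 0.33 and 0.36. It was followed by the chemokine Ccl8 (0.34 and 0.29), Fcrls (0.29 and 0.29) and the sialic acid lyase Npl (0.29 and 0.29). Ccl6, Arg1, Fcgrt, Lyz2, Wfdc17 and Ms4a7 completed the first 10, at mean correlations of 0.27 to 0.24. Gas6 ranked 14, Stab1 17, Mrc1 21, Vcam1 22 and Maf 24. These correlations are weak, come from sparse counts within 1 library each, and describe these cells only.

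Compared with other C1q macrophages, members held more transcripts of F13a1, Igf1, Ccl7, Ccl8 and Npl. Of 9271 genes with at least 100 UMIs in each library, 56 were at least 2-fold higher in members in both libraries (0.604%) and 54 at least 2-fold lower (0.582%). The counting intervals left out 1 in both libraries for all 56 higher genes and for 42 of the lower ones. In thinned cells, with 7519 genes tested, 60 were higher and 37 lower, among them 38 of the 56 and 19 of the 54. Rnase2a, an eosinophil-type ribonuclease, stood at 67.5 and 97.7 CPM in CEP and Vehicle members against 6.21 and 5.68 in other C1q macrophages. F13a1 stood at 244 and 194 against 22.3 and 27.6. The iron exporter Slc40a1 (ferroportin) stood at 35.6 and 24.1 against 5.68 and 6.83, and the growth factor Igf1 at 39.9 and 31.2 against 11.9 and 6.99. In CEP 56.1% of the Slc40a1 UMIs lay in 2 members, without which it stood at 16.0 CPM. The monocyte-attracting chemokines Ccl8 and Ccl7 were higher too, Ccl8 at 1449 and 1319 against 433 and 378 and Ccl7 at 484 and 375 against 123 and 102. Npl, Pmp22 and Rcn3 were also past 2-fold, Npl at 212 and 204 against 63.7 and 49.9.

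Dcstamp, Qpct, Areg and Susd4 were among the genes lower in members. Dcstamp, which is needed for macrophage fusion into multinucleated cells, stood at 5.40 and 4.12 CPM in members, on 10 and 7 UMIs, against 49.8 and 40.5 in other C1q macrophages. Qpct, an enzyme that caps chemokine ends, stood at 2.16 and 2.35 against 13.4 and 14.3. The epidermal growth factor receptor ligand Areg stood at 1.62 and 6.47 against 25.04 and 24.7. All 3 were low in members in both libraries. Susd4 had no UMI in members, against 6.74 CPM in CEP and 5.65 in Vehicle in other C1q macrophages. A floor of 3 UMIs over the members would be 1.62 CPM in CEP and 1.77 in Vehicle. The levels in other C1q macrophages were 4.16-fold and 3.20-fold that floor, which is not an interval limit. Ccr7 and Tcrg-C1, genes of migrating dendritic cells and of gamma-delta T cells, were also among the 12 lowest, with Retnlg and Stfa2 of neutrophils, Asb2, Gpr141 and Fgf13. The lists that follow were chosen with earlier results known and describe the same choice of cells.

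By list, chemokines and resident and perivascular genes had the highest medians in members relative to other C1q macrophages among the 25 lists. Over the 9271 genes tested, 34.8% were higher in members in both libraries by any size and 27.8% lower, and the median log2 ratio of members over other C1q macrophages was 0.03 in each. Of the 23 resident and perivascular genes tested, 19 were higher in both libraries and 3 lower, with medians of 0.66 in CEP and 0.77 in Vehicle, and 5 were past 2-fold. Maf, for example, stood at 152 and 133 CPM against 73.1 and 66.6, and the scavenger receptor Stab1 at 188 and 181 against 93.9 and 79.2. Of 18 chemokines 11 were higher and 5 lower in both libraries, with medians of 0.92 in CEP and 0.73 in Vehicle. Of 31 lysosomal genes 24 were higher and 2 lower, and of 20 haem and iron genes 16 were higher and 1 lower. The haem-degrading enzyme Hmox1 stood at 432 and 311 against 160.0 and 197. Of 20 lipid-handling genes 15 were higher, among them Apoe, the apolipoprotein of cholesterol transport, at 21592 and 20044 against 16412 and 15947. Of 12 complement genes 8 were higher and 2 lower, among the higher ones C4b at 77.2 and 73.6 against 32.2 and 35.3.

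MHC class II and most type I interferon genes were lower in members than in other C1q macrophages, and class I and interferon-gamma genes differed less. Of 23 MHC class I genes tested 13 were lower in both libraries and 3 higher, with median log2 ratios of -0.03 in CEP and -0.17 in Vehicle. Of 12 MHC class II genes tested 9 were lower in both libraries and 2 higher, with median log2 ratios of -0.63 in CEP and -0.57 in Vehicle. H2-Ab1 stood at 2792 and 3538 CPM against 4477 and 5786. Of 25 type I interferon genes 19 were lower and 2 higher, and of 21 interferon-gamma genes 13 were lower and 1 higher. The interferon-gamma medians were -0.07 in CEP and -0.32 in Vehicle. The same exclusion of Cxcl9, Cxcl10 and Ifit2 applied to both populations. Of 6 monocyte markers tested 4 were lower and none higher, and of 12 genes of the NF-kB and PARP list 7 were lower and 3 higher.

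Cbr2 Cd163 macrophages served as the nearest comparison. They were the 332 C1q cells (124 in CEP, 208 in Vehicle) with 2 or more UMIs of Cbr2 and Cd163 under the other exclusions. Of them 53 (42.7%) and 85 (40.9%) also reached 5 UMIs of Folr2 and Fcna. That share rests on raw UMIs, and no comparison with members at equal depth is given here. The Cbr2 Cd163 cells were shallower than members, at medians of 6395.5 UMIs in CEP and 5687.5 in Vehicle against 11132 and 12766. Folr2, Fcna, Fcrls and Gas6 were at or above the members' levels in them: Folr2 stood at 476 and 454 CPM, Fcna at 411 and 402, Fcrls at 232 and 242, and Gas6 at 275 and 304, with Vcam1 at 128 and 130 close to the members' 133 and 109. Of 3539 genes, 32 were at least 2-fold lower in members in both libraries (0.904%) and 2 at least 2-fold higher (0.0565%). Cbr2 and Cd163 are among the 32 by rule. Ccl8 was higher in the Cbr2 Cd163 cells, at 5637 and 5518 against 1449 and 1319 in members, and so was Wfdc17, a secreted whey-acidic protein, at 2985 and 3261 against 719.8 and 628. Pltp, a phospholipid transfer protein, stood at 568 and 446 against 135 and 85.9, and Id3, a transcriptional inhibitor of resident macrophages, at 105 and 98.0 against 30.2 and 22.96. Lyve1, a hyaluronan receptor of perivascular macrophages, stood at 54.2 and 56.2 in the Cbr2 Cd163 cells and at 3.24 and 3.53 in members. For Ccl8, Wfdc17, Pltp and Lyve1 members lay between other C1q macrophages and Cbr2 Cd163 cells, while Id3 stood at 30.6 and 26.9 in other C1q macrophages, near the members' level.

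A few genes set the members apart from the Cbr2 Cd163 cells in the other direction. The 2 past 2-fold were Prtn3, a serine protease, at 66.9 and 67.1 CPM against 16.3 and 25.5, and Spp1, which encodes osteopontin, at 2539 and 3360 against 1218 and 1635. The cytokine Il1a stood at 195 and 249.6 against 99.7 and 129, and Rgs1, a regulator of G protein signalling, at 740.3 and 608 against 354 and 357. Of 10 MHC class II genes tested, 9 were higher in members in both libraries and 1 lower, and of 20 hypoxia and glycolysis genes 18 were higher and none lower, beside 30.3% of all genes higher and 39.7% lower. H2-Ab1 stood at 2792 and 3538 in members and 1961 and 2346 in Cbr2 Cd163 cells, and Vegfa, the vascular growth factor induced by low oxygen, at 306 and 237 against 189 and 123. Of 20 resident and perivascular genes 16 were lower in members and 2 higher.

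**Figure D2:**
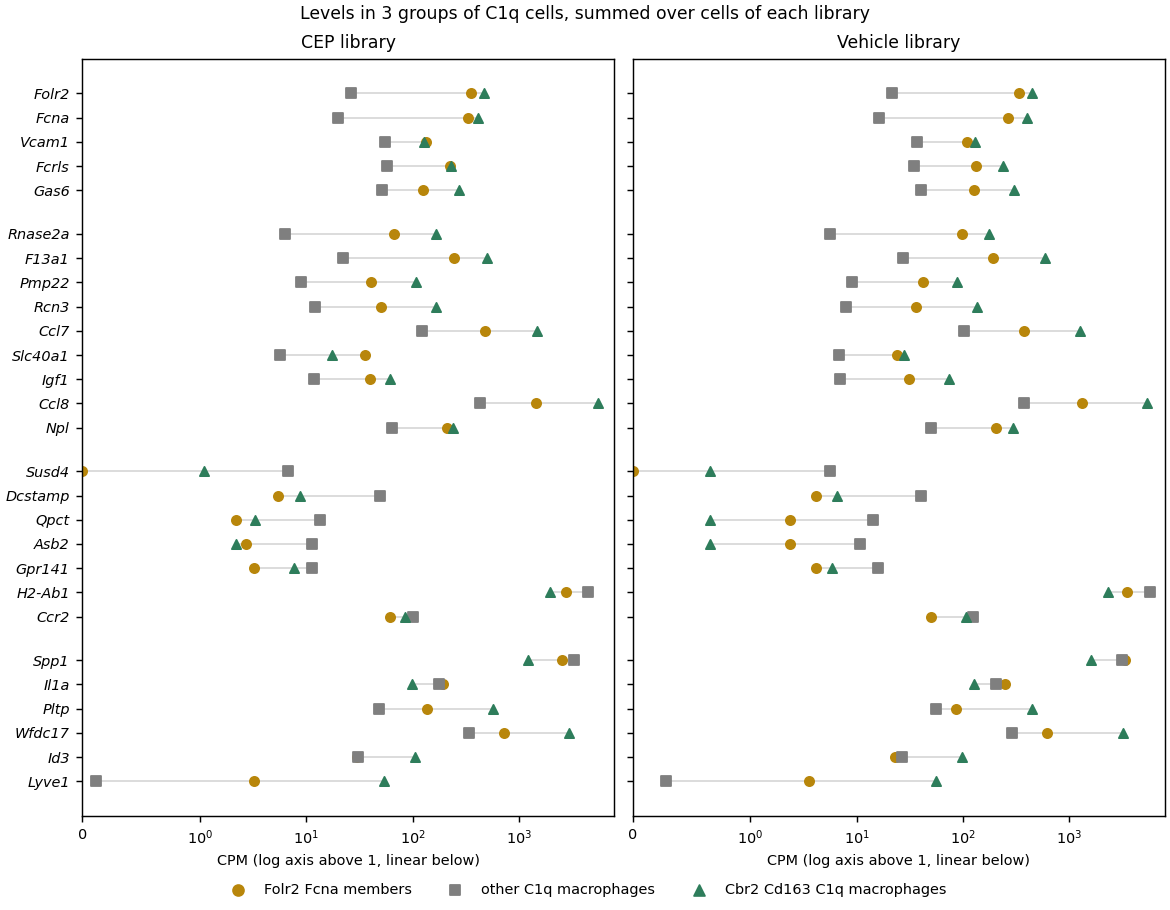
Levels in CPM (log axis above 1, linear below, no error bars) of marker and other named genes in members (gold circles), other C1q macrophages (grey squares) and Cbr2 Cd163 C1q macrophages (green triangles), in CEP on the left and Vehicle on the right. Members lie between the other populations for F13a1, Ccl7, Ccl8, Pltp and Lyve1 in both libraries, and nearest to other C1q macrophages for Spp1.

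Members made up 1.62% of kept barcodes in CEP (1.38 to 1.90, exact Clopper-Pearson) and 1.30% in Vehicle (1.09 to 1.54). The ratio of the shares was 1.25 (0.992 to 1.58), an interval that holds 1. Of C1q cells, members were 3.23% in CEP and 2.42% in Vehicle, a ratio of 1.34 (1.06 to 1.68). The share depended on the exclusions: without that of Cbr2 and Cd163 the ratio was 1.01 (0.837 to 1.22), and without any exclusion, with 311 and 361 cells, it was 0.897 (0.772 to 1.04). Cbr2 Cd163 cells were 1.30% of CEP and 2.09% of Vehicle barcodes, a ratio of 0.620 (0.498 to 0.774). With the limit set at 5 per 10000 UMIs of the cell the ratio was 1.09 (0.883 to 1.35). That limit lets shallow cells in on fewer UMIs, and the exclusions stayed on raw UMIs. With all cells of at least 5000 UMIs thinned to 5000 before the rule was applied, the ratio was 1.40 (0.957 to 2.03) over 64 and 46 members. No direction of the members' share between CEP and Vehicle could be set from these values.

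Members from CEP held more transcripts of Cxcl1, Cxcl2, Cxcl3, Ccl4, C3 and Il1rn and fewer of Ccl24, Pf4 and MHC class II genes than members from Vehicle. Neutrophil transcripts were higher in CEP members too. In Cbr2 Cd163 cells the 8 neutrophil markers also summed higher in CEP, at 3274 CPM against 1416 in Vehicle. Of 4224 genes with at least 100 UMIs over the members of both libraries, 77 were at least 1.5-fold higher in CEP (1.82%) and 35 at least 1.5-fold lower (0.829%). In all 112 the counting interval of the ratio left out 1. With at least 100 UMIs a ratio of 1.5 nearly fixes this in advance, so the interval was no further check on these genes. By that interval alone 317 genes were higher in CEP (7.5%) and 306 lower (7.24%). The median log2 ratio over all 4224 genes was 0.00 in members and 0.01 in other C1q macrophages. Log2 ratios are CEP over Vehicle with 0.5 UMI added to each sum, and the interval follows in parentheses. A single value given for a gene below is this log2 ratio.

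Of the 5 markers, Fcrls alone passed 1.5-fold. Its log2 ratio in members was 0.75 (0.52 to 0.99), and in other C1q macrophages 0.72, so both held more of it in CEP. The Cbr2 Cd163 cells did not, with 232 and 242 CPM in CEP and Vehicle, and without the exclusion of Cbr2 and Cd163 the members' ratio was 0.17. Folr2 gave 0.05 (-0.11 to 0.22) and Vcam1 0.28 (0.00 to 0.57). Fcna gave 0.32 (0.14 to 0.50), but -0.14 as a mean over the CPM of single cells. For Folr2 and Fcna the limit of the rule bounds what can differ. Gas6 gave -0.03 (-0.30 to 0.25), against 0.37 in other C1q macrophages, a difference of -0.40 (-0.68 to -0.11). In all, the counting interval of this difference left out 0 for 495 genes (11.7%).

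Among the largest ratios towards CEP, those of Cxcl3, G0s2, S100a8 and S100a9 came from UMIs gathered in few cells. Cxcl3, a ligand of the neutrophil receptor CXCR2, stood at 176 CPM in CEP and 37.7 in Vehicle, a log2 ratio of 2.22 (1.84 to 2.64). However, 191 of its 327 CEP UMIs came from 1 cell, it was found in 17 and 7 members, and the mean over cells gave 0.59. G0s2, a lipase inhibitor abundant in neutrophils, stood at 128 CPM in CEP and 34.1 in Vehicle, a log2 ratio of 1.90 (1.49 to 2.35). S100a8 and S100a9, the calprotectin subunits that fill the neutrophil cytoplasm, stood at 404 CPM in CEP and 141 in Vehicle and at 775 CPM in CEP and 268 in Vehicle, with log2 ratios of 1.52 (1.31 to 1.74) and 1.53 (1.38 to 1.69). In CEP, 2 cells held 74.7% of the S100a8 and 70.5% of the S100a9 UMIs. After removal of the 8% of barcodes with the highest doublet scores, 15 CEP and 9 Vehicle members among them, the ratios were 0.70 and 0.28. Whether the removed cells were doublets was not tested. Without members holding 10 or more S100a8 and S100a9 UMIs the ratios were 0.40 and 0.68. Without those members Cxcl3 gave 2.28, Cxcl2 0.62 and C3 1.35. G0s2 was found in 14 CEP and 7 Vehicle members, and 2 cells held 43.5% and 67.2% of its UMIs. Without the 2 richest cells of each library all 4 stayed past 1.5-fold, at 2.39 for Cxcl3, 2.67 for G0s2, 1.13 for S100a8 and 1.24 for S100a9.

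C3, Slc7a2, Fbxo32 and Fem1b were higher in CEP members by over 1.5-fold under all 12 alternatives tried for single genes. Among the 12, a mitochondrial share of at most 10% removed no member and so could not change a ratio. Of the 32 named genes past 1.5-fold 9 were past it under all 12, these with Cxcl3 and G0s2 towards CEP and Sfi1, Actr10 and Cldnd1 towards Vehicle. With the limit at 3 UMIs of Folr2 and Fcna 18 of the 32 were no longer past it, and without the exclusion of Cbr2 and Cd163 13 were not. C3, the central complement component, stood at 50.7 CPM in CEP (41.0 to 62.1) and 19.4 in Vehicle (13.4 to 27.3), a log2 ratio of 1.37 (0.80 to 2.0), against 0.08 in other C1q macrophages. It had a UMI in 40 of 155 CEP and 18 of 129 Vehicle members, and its ratio lay between 0.85 and 1.82. Slc7a2, a transporter of cationic amino acids such as arginine, stood at 54.5 CPM in CEP and 23.5 in Vehicle, a log2 ratio of 1.20 (0.67 to 1.78), against a ratio of -0.16 in other C1q macrophages. In CEP 2 members held 38 of the 101 Slc7a2 UMIs. Without the 2 richest cells of each library Slc7a2 gave 0.84 (0.22 to 1.51). The ratios in members exceeded those in other C1q macrophages by 1.29 (0.71 to 1.87) for C3 and 1.36 (0.82 to 1.90) for Slc7a2. Fbxo32, a ubiquitin ligase component, stood at 53.4 CPM in CEP and 21.2 in Vehicle, a log2 ratio of 1.32 (0.77 to 1.93), and Fem1b, another substrate receptor of ubiquitin ligases, at 42.6 CPM in CEP and 17.7 in Vehicle, a log2 ratio of 1.26 (0.65 to 1.93). Saa3, an acute-phase serum amyloid, gave 1.10 (0.64 to 1.60), which was 0.33 with likely doublets removed and 0.19 without the exclusion of Cxcl9, Cxcl10 and Ifit2. Ptpn7, Gtf2i and Smagp followed, at 0.94, 0.93 and 0.88. With the limit at 3 UMIs of Folr2 and Fcna, Cxcl3 gave 1.09, G0s2 0.72 and Fbxo32 0.59.

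The largest ratios towards Vehicle were smaller. Slpi, a secreted protease inhibitor, stood at 42.1 CPM in CEP and 107 in Vehicle, a log2 ratio of -1.34 (-1.75 to -0.96), but 89 of its 182 Vehicle UMIs lay in 1 cell, and without the 2 richest cells of each library it gave -0.64. Slamf8, a receptor of myeloid cells, stood at 44.2 CPM in CEP and 84.8 in Vehicle, a log2 ratio of -0.93 (-1.35 to -0.54), and Ifitm1, an interferon-induced membrane protein, at 523 CPM in CEP and 911 in Vehicle, a log2 ratio of -0.80 (-0.92 to -0.68), with -0.15 in other C1q macrophages and -0.23 in members with the limit at 3 UMIs. In Vehicle 2 members held 430 of the 1548 Ifitm1 UMIs, and without the 2 richest cells of each library Ifitm1 gave -0.60. Ciita, the master activator of MHC class II genes, stood at 23.2 CPM in CEP (16.8 to 31.3) and 40.0 in Vehicle (31.1 to 50.7), a log2 ratio of -0.78 (-1.37 to -0.21) against -0.31 in other C1q macrophages. Gadd45g, a stress-response gene, gave -0.75 (-1.04 to -0.47). Sfi1, Mrpl37, Actr10, Scly, Cldnd1, Ramac and Gtf2a2 made up the 12, between -0.88 and -0.73, and of these Sfi1 had a like ratio in other C1q macrophages, at -0.65.

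Chemokines differed in both directions. Of 15 measured in members, 4 were at least 1.5-fold higher in CEP and none lower, and by the counting interval 9 were higher and 2 lower. Cxcl1 and Cxcl2 bind CXCR2 like Cxcl3. Cxcl2 stood at 1204 CPM in CEP (1155 to 1255) and 713 in Vehicle (673 to 754), a log2 ratio of 0.76 (0.66 to 0.86) against 0.31 in other C1q macrophages. Cxcl1 stood at 164 CPM in CEP (146 to 184) and 94.8 in Vehicle (80.7 to 111), with 0.79 (0.51 to 1.08) against -0.11. These 3 ligands of CXCR2 were thus higher in CEP members. With the limit at 3 UMIs of Folr2 and Fcna, however, the ratios of Cxcl2 and Cxcl1 were 0.39 and 0.10, and with the limit at 10 0.47 and 0.05. Ccl4, an inflammatory chemokine, stood at 1002 CPM in CEP (956 to 1048) and 580.4 in Vehicle (545 to 618), with 0.79 (0.67 to 0.90) against 0.02. As means over cells Ccl4 gave 0.51 and Cxcl2 0.53, both under 1.5-fold, and Ccl4 gave 0.43 in thinned members, 0.40 with the limit at 3 UMIs and 0.34 without the exclusion of Cbr2 and Cd163, where Cxcl1 gave 0.35. Its relative Ccl3 gave 0.51 (0.30 to 0.73). The monocyte attractant Ccl2 gave 0.28 (0.13 to 0.42) and -0.03 without the 2 richest cells of each library, and Ccl7 0.37 (0.22 to 0.52) and 0.05 as a mean over cells. Ccl8, the chemokine most tied to Folr2 and Fcna, differed little, at 0.14 (0.05 to 0.22).

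In the other direction stood Ccl24, an eotaxin of alternatively activated macrophages, at 682 CPM in CEP (644 to 720.2) and 1012 in Vehicle (965 to 1061), a log2 ratio of -0.57 (-0.68 to -0.47) against 0.10 in other C1q macrophages. With the limit at 3 UMIs its ratio was -0.11. Pf4, a platelet-type chemokine also made by resident macrophages, stood at 813 CPM in CEP (773 to 855) and 1130 in Vehicle (1080 to 1182), with -0.47 (-0.57 to -0.38) against -0.01. Over the alternatives its ratio lay between -0.72 and -0.28. In each library 19 members had Pf4 at 20 or more per 10000 UMIs. They held 895 of 1507 Pf4 UMIs in CEP and 1324 of 1920 in Vehicle. In the other 136 and 110 members Pf4 stood at 381 CPM in CEP and 409 in Vehicle. That split is made on Pf4 itself, so its levels are a description. Among 9 chemokine receptors 1 was higher by the interval, Cxcr4, at 0.52 (0.22 to 0.83), and none lower.

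**Figure D3:**
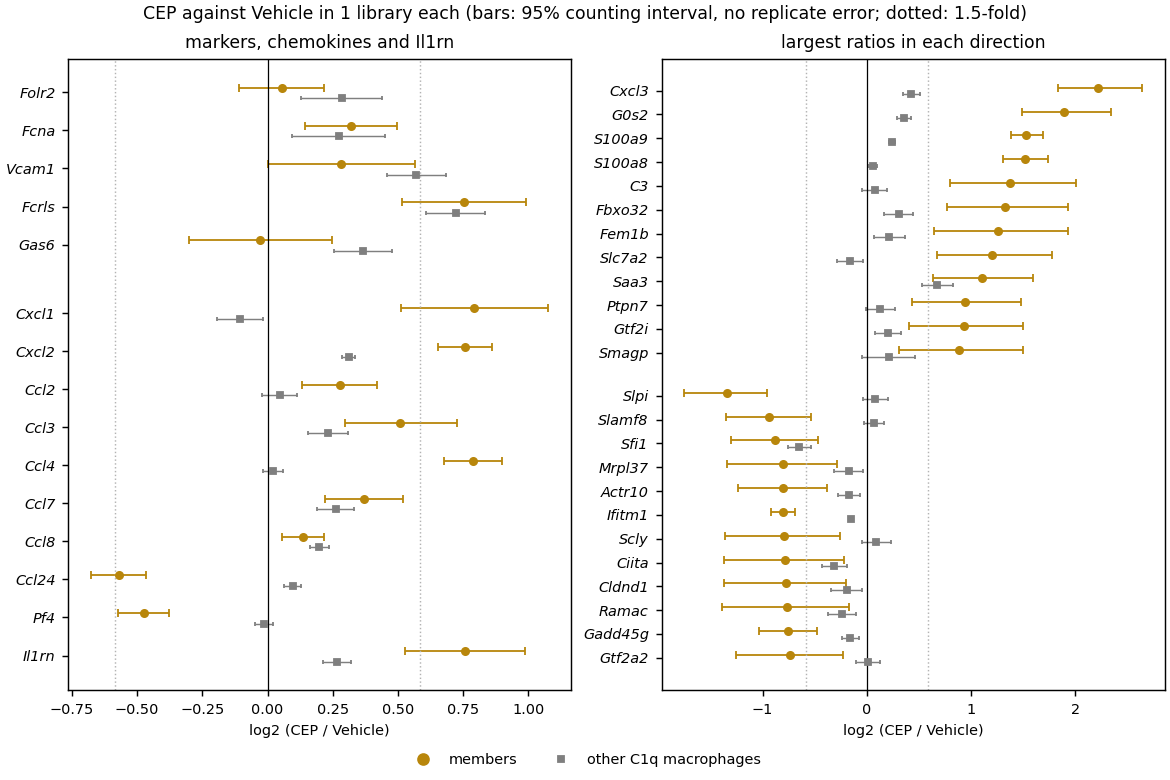
Log2 of CEP over Vehicle (horizontal axis) in members (gold circles) and other C1q macrophages (grey squares), with 95% counting intervals that hold no replicate error and dotted lines at 1.5-fold. Left, the 5 markers, 9 chemokines and Il1rn, with Cxcl1 at 0.79, Cxcl2 at 0.76 and Ccl4 at 0.79 in members and Ccl24 and Pf4 below 0; right, the 12 highest and 12 lowest genes, chosen by the members' ratio, from 2.22 for Cxcl3 to -1.34 for Slpi.

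MHC class II genes were lower in CEP members, as they were in other C1q macrophages. Of 11 measured, 9 were lower by the counting interval and 1 was higher, the protease Ctss, and Ciita alone passed 1.5-fold. The list's median, taken relative to the median of all genes, was -0.30 in members and -0.33 in other C1q macrophages. H2-Aa stood at 3444 CPM in CEP (3360 to 3529) and 4229 in Vehicle (4132 to 4328), a log2 ratio of -0.30 (-0.35 to -0.25). H2-Ab1 stood at 2792 CPM in CEP and 3538 in Vehicle, a log2 ratio of -0.34 (-0.40 to -0.29), and Cd74, the invariant chain that guards the peptide groove, at 11217 CPM in CEP and 13916 in Vehicle, a log2 ratio of -0.31 (-0.34 to -0.28). Class I genes, which present peptides to CD8 T cells, differed less in members: of 21 measured, 2 were higher and 6 lower by the interval, with a median of -0.06 against -0.22 in other C1q macrophages. H2-K1 gave 0.03 (-0.04 to 0.10) and H2-D1 0.08 (0.02 to 0.14), against -0.18 for H2-D1 in other C1q macrophages.

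Interferon genes were near even in members by this rule, which left out cells rich in Cxcl9, Cxcl10 and Ifit2. The median of 12 interferon-gamma genes was -0.07 in members against -0.39 in other C1q macrophages. With cells of that exclusion put back, however, the list's median in members was -0.27. The median of 13 type I interferon genes was -0.01, and -0.30 with those cells put back. Isg15, a ubiquitin-like protein, gave -0.22 (-0.40 to -0.04) and Irf7 -0.37 (-0.64 to -0.10), while Oasl2, an antiviral oligoadenylate synthase-like gene, gave 0.83 (0.28 to 1.42). Over the 12 alternatives for single genes Oasl2 lay between 0.30 and 1.09 and was past 1.5-fold in 8. With the cells rich in Cxcl9, Cxcl10 and Ifit2 put back Oasl2 was not past it.

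Genes of the resident and scavenger programs were close to even or slightly higher in CEP members. Of 20 resident and perivascular genes measured, 7 were higher and 1 lower by the interval, with a median of 0.16 against 0.05 in other C1q macrophages. F13a1 stood at 244 CPM in CEP and 194 in Vehicle, a log2 ratio of 0.33 (0.12 to 0.54), against -0.31 in other C1q macrophages, and Mrc1 gave 0.30 (0.16 to 0.44). Maf gave 0.19 (-0.06 to 0.45), Stab1 0.06 (-0.17 to 0.29) and Selenop, a selenium carrier, -0.02 (-0.12 to 0.09), and each interval held 0. Of 18 efferocytosis and scavenger genes 3 were higher and 1 lower. Of 11 complement genes measured C3 alone passed the interval. Of 17 lipid-handling genes 5 were higher and none lower, among them Fabp5, a fatty acid binding protein, at 890.4 CPM in CEP and 689.8 in Vehicle, a log2 ratio of 0.37 (0.26 to 0.48). Pltp gave 0.65 (0.36 to 0.96), of which 91 of 251 CEP UMIs lay in 1 cell, and 0.22 without the 2 richest cells of each library. Of 13 haem and iron genes 4 were higher and 1 lower. Hmox1 stood at 432 CPM in CEP and 311 in Vehicle, a log2 ratio of 0.48 (0.32 to 0.64), with 216 of 801 CEP UMIs in 1 cell, and gave 0.20 without the 2 richest cells and -0.49 with the limit at 10 UMIs.

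Regulators and cytokines showed few differences of size. Of 23 macrophage transcription factors 6 were higher by the interval in CEP and none lower, with a median of 0.19 against 0.11 in other C1q macrophages. Klf4 gave 0.62 (0.35 to 0.89), Nr4a1 0.48 (0.33 to 0.63) and Atf3 0.48 (0.37 to 0.60), while Spi1, which encodes PU.1, gave 0.01 (-0.13 to 0.14). Over the 12 alternatives Klf4 lay between 0.29 and 0.85 and was past 1.5-fold in 8. Of 16 growth factors and cytokines 2 were higher and 2 lower. Il1rn, the secreted antagonist of the interleukin 1 receptor, stood at 242 CPM in CEP (219.9 to 265) and 143 in Vehicle (126 to 162), with 0.76 (0.53 to 0.99) against 0.26 in other C1q macrophages, and lay between 0.56 and 0.88 under all alternatives tried. Its counterpart Il1a gave -0.35 (-0.56 to -0.15), and Il1b -0.05 (-0.11 to 0.01). The receptor antagonist and its agonist Il1a therefore pointed in opposite directions in members. The series title names NF-kB and PARP1: of 8 genes of that list 1 was higher by the interval, Nfkb1 at 0.57 (0.15 to 1.0), and none lower, and Parp1 stood at 61.5 CPM in CEP (50.7 to 73.9) and 68.9 in Vehicle (57.0 to 82.5), with -0.16 (-0.55 to 0.22). Of the 4 folate and one-carbon genes measured, relevant to a folate receptor, the median was -0.43 against -0.11, with Shmt2 at -0.58 (-1.13 to -0.04) the lowest and the only interval that left out 0.

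**Figure D4:**
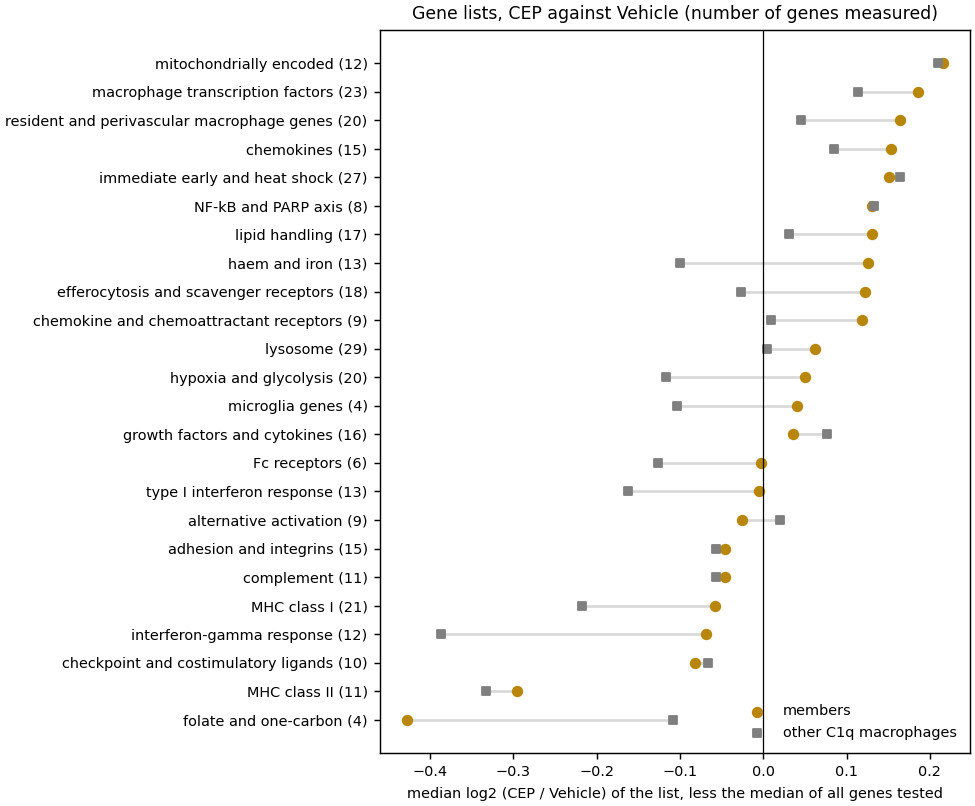
Median log2 of CEP over Vehicle for 24 gene lists, less the median of all genes tested, in members (gold circles) and other C1q macrophages (grey squares), with the number of genes measured in parentheses. MHC class II lies at -0.30 in members and -0.33 in other C1q macrophages, while the interferon-gamma list lies at -0.07 in members and -0.39 in other C1q macrophages; no error is drawn.

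Members were not uniform. MHC class II transcripts (H2-Aa, H2-Ab1, H2-Eb1 and Cd74 summed, in members thinned to 5000 UMIs) had quartiles of 13, 58 and 164 UMIs over 148 CEP members and of 33.5, 104 and 204 over 123 Vehicle members. The C1q genes, used by the rule, spread less, from 65 to 97 and from 64 to 100 between their quartiles. A subset rich in Pf4 stood out, chosen after the values were seen and defined by Pf4 at 20 or more per 10000 UMIs, which is a range and not a type. It held 19 CEP members (12.3%) and 19 Vehicle members (14.7%), and 11 and 7 members lay between 15 and 25 per 10000, near the limit. The median member had Pf4 at 3.46 and 3.83 per 10000.

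In members thinned to 5000 UMIs, Pf4 ran with Adam8 (r of 0.55 in CEP and 0.44 in Vehicle) and Mmp12 (0.50 and 0.45) and against H2-Eb1 (-0.43 and -0.58), over 148 and 123 cells that share a library each. Genes for the split at the Pf4 limit were taken partly from those correlations, so their direction follows from that choice and the levels are a description. Mmp12, the macrophage elastase, stood at 2890 against 185 CPM in CEP and 887 against 199.8 in Vehicle, in Pf4-rich against other members. Mmp13, a collagenase, stood at 703 against 133 CPM in CEP and 516 against 128 in Vehicle, and Adam8, a membrane metalloprotease, at 528 against 66.0 CPM in CEP and 268 against 100.2 in Vehicle. Arg1 stood at 3931 against 1484 CPM in CEP and 3136 against 1376 in Vehicle, and Ccl6 at 5166 against 1649 CPM in CEP and 4163 against 1592 in Vehicle. H2-Ab1 was lower, at 1028 against 3062 CPM in CEP and 706 against 4009 in Vehicle, and so was Apoe, at 10996 against 23214 CPM in CEP and 12206 against 21348 in Vehicle. Of the markers, Folr2 stood at 301 against 363 CPM in CEP and 417 against 329 in Vehicle. Fcna stood at 382 against 329 CPM in CEP and 400.3 against 248 in Vehicle, Fcrls at 224 against 226 CPM in CEP and 173 against 128 in Vehicle, Vcam1 at 114 against 136 CPM in CEP and 111 against 109 in Vehicle and Gas6 at 134 against 123 CPM in CEP and 144 against 124 in Vehicle. Fcna in Vehicle thus differed most among them.

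**Figure D5:**
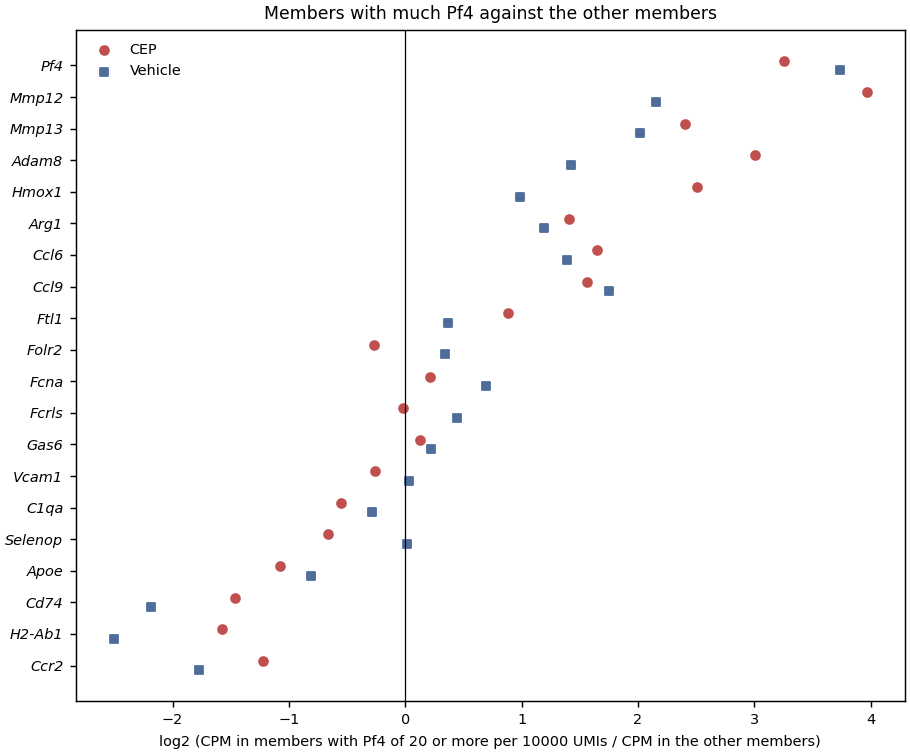
Log2 of the CPM in members with Pf4 of 20 or more per 10000 UMIs over the CPM in the other members (horizontal axis), for 20 genes in CEP (red circles) and Vehicle (blue squares), without error bars. Mmp12, Mmp13, Adam8, Hmox1 and Arg1 lie above 0 and Cd74, H2-Ab1 and Apoe below 0 in both libraries, with the 5 markers between them.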

How the data were processed

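Droplet 3' sequencing of CD45-enriched tumour cells gave 1 library each for CEP and Vehicle. The authors deposited raw UMI counts per gene and barcode, made with Cell Ranger 5.0.1 on mm10 per the submitters' processing notes, while the file headers name 7.1.0. The counting of introns is not stated in the sources used here. Deposited barcodes held at least 500 UMIs, and 19610 gave 19476 after filters on genes and mitochondrial share.

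Members were found by the rule on raw UMIs. UMIs were summed per library and population and scaled to counts per 1000000 UMIs (CPM). Levels carry exact Poisson, ratios exact conditional binomial and shares exact Clopper-Pearson 95% intervals, and ratios of shares log-normal ones. They cover counting error only, and PCR duplicates had been collapsed by UMI. Genes with 100 UMIs were called at 1.5-fold between CEP and Vehicle and at 2-fold between populations. No gene test was run, because each group has 1 sample. The code for ratios and their intervals was tested on simulated counts. Doublets were kept, as the rule has it: Scrublet (scanpy 1.11.5) marked 1 barcode per library by its automatic limit, so it had not worked, and removing the 8% of barcodes with the highest scores was an alternative.

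Named genes are the 12 highest and 12 lowest of each comparison, the 4 members of each list with most UMIs, the 10 genes most like Folr2 and Fcna, and the 5 markers. Further list genes, among them Cxcl1, Ccl4, Il1rn, Klf4, Oasl2, Pltp, F13a1 and Nfkb1, and the Pf4 split were chosen after their values were seen. Some genes that the rule would name are not reported here. The members, the 25 gene lists and the 15 marker lists were chosen with earlier results of these data known. Marker sums leave out genes of the rule. Other alternatives were the UMI limits, each exclusion, thinning to 5000 UMIs, means over cells, scaling and the UMI minimum, and, chosen after seeing the data, the drop of the remaining exclusions, removal of members with neutrophil transcripts, removal of the 2 richest cells per gene and the definition of neutrophils that allows C1q UMIs. Python 3.11.15, numpy 2.4.6, scipy 1.17.1, pandas 2.3.3 and matplotlib 3.10.9 were used.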

Additional observations from a re-analysis of the deposited data

How the results depend on the processing

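The log2 ratio of the members' share, 0.32 by the rule, was -0.16 without any exclusion. Of genes at least 1.5-fold higher in CEP members, 77 by the rule, 29 were counted with members thinned to 5000 UMIs (1835 genes tested), 33 with at least 10 UMIs of Folr2 and Fcna (1172 tested), 233 at a minimum of 50 UMIs and 25 at 200. Of genes at least 1.5-fold lower, 35 by the rule, 66 were counted by means over cells, 145 at 50 UMIs and 12 at 200. The higher genes were 68.8% of those called by the rule, 53.7% after thinning and 57.9% with at least 10 UMIs of Folr2 and Fcna. Of genes 2-fold lower than in other C1q macrophages, 54 by the rule, 35 were counted at 200 UMIs. Ciita was 0.055 (-1.48 to 1.64) with at least 10 UMIs of Folr2 and Fcna, where 34 and 28 members were left. Of the other alternatives for single named genes, 407 stayed within the counting interval of the ratio by the rule and 108 moved outside it. Of those for list medians, 313 stayed less than 0.2 from the value by the rule and 9 moved further. Most list medians were themselves under 0.2 in size, so such a list could change sign and still count as staying. Those that stayed include the mitochondrial share of at most 10%, which left the members the same and could not move a value. Where no value shows the cause of a move, the cause was not tested. No paired analysis was possible because each group is 1 library. With 1853192 and 1698962 member UMIs, genes under 100 UMIs were not compared.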

Other observations

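Several gene groups not described above were also measured in members. Mitochondrially encoded genes were higher in CEP in members and other C1q macrophages alike: of 12 measured 8 were higher by the counting interval and none lower, with a median log2 ratio, less that of all genes, of 0.22 in members and 0.21 in other C1q macrophages. Immediate early and heat shock genes pointed in both directions. Of 27 measured 15 were higher and 3 lower, among them Jun at 0.30 (0.14 to 0.47) and Fos at 0.13 (0.04 to 0.22), both subunits of AP-1, and the chaperones Hspa1b at -0.47 (-0.75 to -0.19) and Hspd1 at -0.41 (-0.65 to -0.16). In other C1q macrophages Hspa1b gave 0.06 and Hspd1 -0.04. Of 20 hypoxia and glycolysis genes 4 were higher and 1 lower in members, with a median of 0.05 against -0.12 in other C1q macrophages. Of 10 checkpoint and costimulatory ligands 1 was lower, Cd274, which encodes PD-L1, at 86.9 CPM in CEP and 125 in Vehicle, a log2 ratio of -0.52 (-0.83 to -0.22), against -0.43 in other C1q macrophages. Of 29 lysosomal genes 4 were higher, among them the protease Ctsd at 0.41 (0.33 to 0.50), and 4 lower, among them Ctsc at -0.33 (-0.40 to -0.26) and Psap at -0.21 (-0.26 to -0.16). The lists of alternative activation (9 measured), adhesion and integrins (15), Fc receptors (6) and microglia genes (4) had medians of -0.03, -0.05, 0.00 and 0.04, and of the 2 ficolin and collectin genes measured the median was -0.29.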
